A study of Mus musculus with 7 samples.

Results

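The miRNAs mmu-miR-192, mmu-miR-194 and mmu-miR-215 are made from 2 small gene clusters and are known as miRNAs of tubule epithelium in the kidney. They were found by their names in the array files, 3 of the 696 mouse miRNAs on the array. The samples were whole kidneys of male C57BL/6 mice aged 9 to 12 weeks, collected at day 28 after unilateral ureteral obstruction (UUO, in which the left ureter is tied and the kidney becomes fibrotic) or after a sham operation that exposed the left ureter without tying it. Each of 7 one-colour Agilent arrays held the RNA of 1 sample, with 3 arrays in the group labelled treated and 4 in the group labelled non-treated. The study states 4 mice in each group for its arrays, and the label treated has no replicate 2 here. No genetic change is given for either group. The question was which miRNAs differ between injured and control kidneys.

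The labels do not state which group was obstructed. The arrays labelled treated carry S numbers and those labelled non-treated C numbers, and the title of the series names sham kidneys. Every difference here therefore runs from the arrays labelled non-treated to those labelled treated, by the deposited label, which is opposite to the direction the study itself lists for miR-192 and miR-194, as UUO over sham. The opposition is not particular to them, since miR-205, miR-199a-3p, miR-214, miR-223 and miR-21, which the study lists as raised after UUO, were all called lower on the arrays labelled treated. For each of these miRNAs the study's direction is that of the arrays labelled non-treated over those labelled treated. Its list thus takes the arrays labelled non-treated as the obstructed kidneys, which the labels do not state. Apart from its arrays, the study also reports by PCR that miR-21 rose with time after UUO in mice. In whole kidney RNA, fewer cells of a type and less RNA per cell cannot be told apart. Nothing in the labels says how the samples were kept apart beyond their names, so p-values measure the spread between these arrays only.

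A miRNA is cut from a hairpin precursor and guides a silencing complex to mRNAs that pair with its seed, the stretch near its 5′ end. MiRNAs with the same seed can share targets. MiR-192 and miR-215 are such a pair, and ZEB1 and ZEB2, repressors of epithelial genes, are among the mRNAs described as targets of miR-192. The clusters have been linked to the HNF1 transcription factors of liver, gut and kidney epithelium, and miR-192 has been studied in kidney fibrosis.

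The mature sequences show which of the 3 miRNAs share a seed and how far an array probe has to separate them. They are given as RefSeq lists them on GRCm38.p6 for the 5p arm of each precursor, the arm that older names without an arm stand for, with the seed (bases 2 to 8) in capitals. All 3 names were matched.
mmu-miR-192: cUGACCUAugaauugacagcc
mmu-miR-215: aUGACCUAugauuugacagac
mmu-miR-194: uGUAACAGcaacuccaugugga

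MiR-192 and miR-215 have the seed UGACCUA in common, and these were the only 2 of 1679 mature names in the RefSeq table that carry it. Counted from 1 at the 5′ end, the change from miR-192 to miR-215 is C1A, A12U and C20A, so 18 of 21 bases are the same. MiR-194 has another seed, GUAACAG, and was the only name in the table with it.

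On GRCm38.p6, Mir194-2 (chr19:6264643-6264728, plus strand) and Mir192 (chr19:6264844-6264932, plus strand) lie 115 bases apart and outside any other annotated gene. Mir194-1 (chr1:185313319-185313385, plus strand) and Mir215 (chr1:185313581-185313692, plus strand) lie 195 bases apart, both within the bounds of Iars2, which encodes the mitochondrial isoleucyl-tRNA synthetase. MiR-194 is thus encoded beside miR-192 and again beside miR-215. Its precursors are shown because the mature part, in capitals, is the same in both, so that signal of the mature miR-194 cannot be assigned to either locus.
Mir194-2: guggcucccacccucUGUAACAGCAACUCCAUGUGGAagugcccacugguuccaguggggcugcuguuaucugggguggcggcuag
Mir194-1: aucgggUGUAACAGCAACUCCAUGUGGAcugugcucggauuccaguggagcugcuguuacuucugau

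The 3p arms of these precursors do differ, by A8G, C19U, U20C and C22G from Mir194-1 to Mir194-2, counted within the arm. No probe named for a 3p arm or star strand of any of the 4 precursors was on the array. MiR-192 and miR-215 each come from 1 locus, and only their signals belong to a single cluster.

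MiR-192 and miR-194 were brighter on all 3 arrays labelled treated than on the 4 labelled non-treated, by 9.44-fold and 7.56-fold in the group means after scaling, and miR-215 was not detected on any array. Each was read by 2 probes with 10 spots per probe. The scanner's processed signal is a background-subtracted intensity. The spots of a probe were averaged, and the probe means of each miRNA were added up.

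Before any scaling between arrays, miR-192 had an intensity of 265, 255, 272 and 271 on the arrays labelled non-treated (replicates 1 to 4). On the arrays labelled treated it had 1066, 1394 and 960 (replicates 1, 3 and 4). The arrays labelled non-treated were close together, while those labelled treated were both brighter and further apart.

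MiR-194 had an intensity of 89.0, 88.1, 72.5 and 90.7 on the arrays labelled non-treated. It had 274, 355 and 245 on the arrays labelled treated. The order of the arrays labelled treated was that of miR-192, with replicate 3 the brightest and replicate 4 the dimmest. Among the arrays labelled non-treated, replicate 3 was low for miR-194 and not for miR-192.

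MiR-215 had a summed intensity of 0.535, 0.501, -0.0764 and 0.207 in the non-treated label group. In the treated label group it had 0.622, -0.0585 and -0.648. The groups overlapped. None of its 140 spots was well above background, against 140 of 140 for miR-192 and 140 of 140 for miR-194. A looser flag, for spots positive and significant against background, was set for 16 of the 140 spots of miR-215. The lowest signal of a miRNA that Agilent's software called detected was between 1.94 and 4.27 on the 7 arrays, above miR-215 on each. MiR-215 was therefore not detectable at this signal on either group of arrays, has no fold change, and was not tested.

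**Figure D1:**
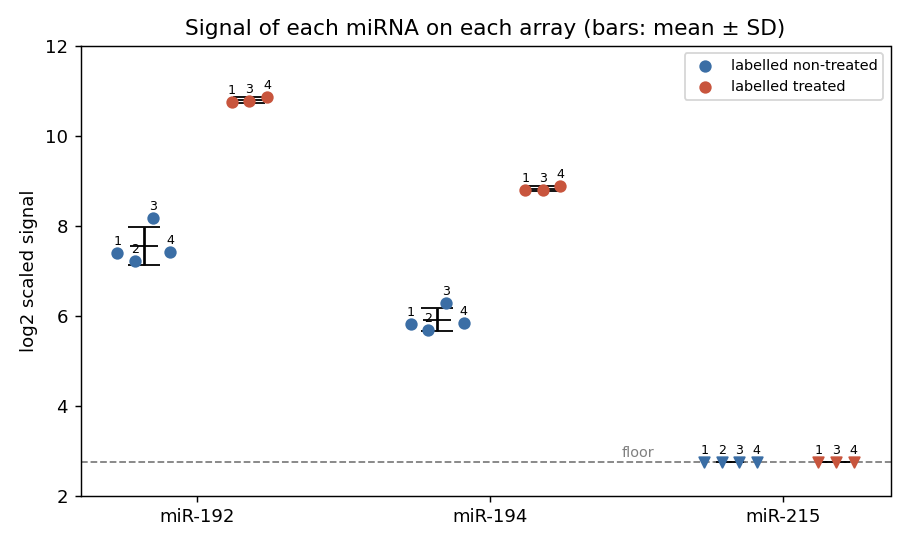
Scaled log2 signal of miR-192, miR-194 and miR-215 on each array, numbered by replicate, with the mean and SD of each label group as black bars. MiR-192 and miR-194 lie higher on all 3 arrays labelled treated than on any of the 4 labelled non-treated, and miR-215 (triangles) lies at the dashed floor of 2.75 throughout.

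The arrays differed in total signal. Taken over the 186 miRNAs that no array missed, the mean log2 signal per array was 7.24 ± 0.40 (SD, n = 4) for the label non-treated and 6.09 ± 0.32 (SD, n = 3) for the label treated. Non-treated replicate 3 had 6.65, against 7.40 to 7.52 on the other arrays of its label. Control probes taken by their names as spike-ins differed less between the labels. Their mean log2 signal was 10.52 ± 0.21 (SD, n = 4) for non-treated and 10.32 ± 0.27 (SD, n = 3) for treated. Between 232 and 282 miRNAs were called detected per array for the label non-treated, and between 193 and 214 for the label treated. The study's methods used each array's mean to normalize it, and each array was scaled here by the mean just described, after which signals under 6.71 (2.75 on the log2 scale) were set to that floor. This moved the brighter arrays down by up to 0.77 and the dimmer ones up by up to 0.96 on the log2 scale.

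After scaling, the log2 signal of miR-192 averaged 7.56 ± 0.43 (SD, n = 4) for the label non-treated and 10.80 ± 0.059 (SD, n = 3) for the label treated. The log2 difference was 3.24 (standard error 0.23, 95% interval 2.68 to 3.80, limma adjusted p = 3.37e-05). MiR-194 averaged 5.91 ± 0.25 (SD, n = 4) and 8.83 ± 0.055 (SD, n = 3), a log2 difference of 2.92 (standard error 0.14, 95% interval 2.58 to 3.26, limma adjusted p = 6.87e-06). The lowest array labelled treated stood above the highest array labelled non-treated by 2.58 for miR-192 and by 2.52 for miR-194 on the log2 scale. How many of the 236 miRNAs tested separated in this way was not counted, and 54.7% of them were called. For miR-192 and miR-194 the exact permutation test (2-sided) gave p = 0.0571. Counted as 2 times the smaller tail, groups of 3 and 4 arrays cannot give a smaller one.

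Of the 3 miRNAs, 2 passed the filter on low signals (called detected on all arrays of one label or of both), and both were called higher at an adjusted p below 0.01. Calls were common on these arrays. Of the 236 miRNAs tested, 54.7% were called, 23.7% as higher and 30.9% as lower on the arrays labelled treated. In the order of the 236 differences by deposited label, miR-192 had the largest rise and miR-194 the next, followed by miR-144, a miRNA of red blood cells, at 2.61. With the labels turned these would be the largest falls. In size alone miR-205, at -3.27, was past miR-192, and miR-194 had the third largest rise with a floor of 1 intensity unit and in row 1 of the slide alone.

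**Figure D2:**
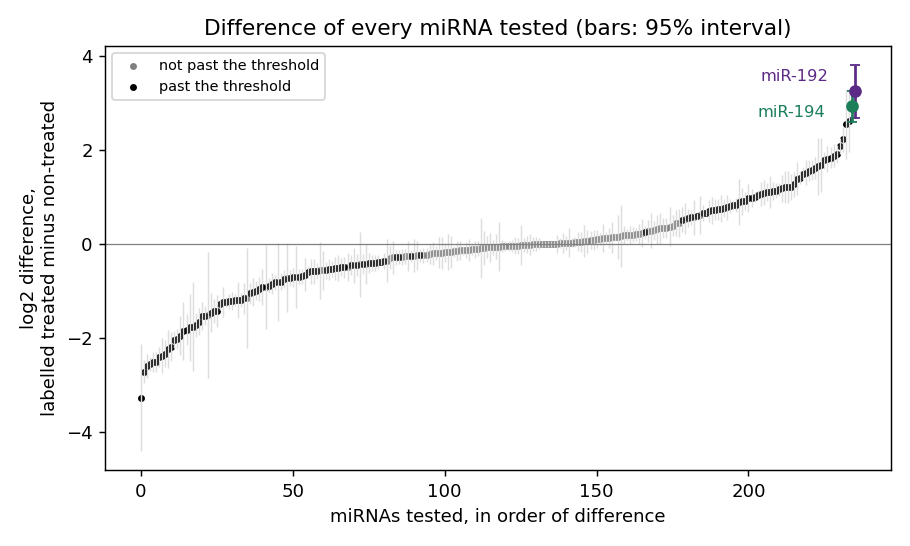
Log2 difference between the label groups for the 236 miRNAs tested, in rank order, with 95% intervals from limma as vertical bars. MiR-192 at 3.24 and miR-194 at 2.92 stand at the upper end, and their intervals overlap.

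The size of both differences depended on the scaling and their direction did not. Over 7 scalings, the main one and no scaling included, the log2 difference ran from 2.08 to 3.49 for miR-192 and from 1.76 to 3.17 for miR-194, with the low end in each case from unscaled signals. Scaling by spike-in controls gave 2.28 and 1.96. The scalings also moved the middle of all miRNAs tested, whose median log2 difference was -0.06 with the main scaling. It was -0.30 when the 75th percentile of the same 186 miRNAs was used, -0.56 for the mean over every miRNA, -1.0 for spike-in controls and -1.20 without scaling. Against that median, miR-192 stood 3.28 to 3.41 higher and miR-194 2.96 to 3.07 higher under all 7. Apart from quantile normalization, these scalings shift all miRNAs of an array together. The gap to the median could thus change little beyond the effect of the floor, and its steadiness is not a separate check. The main scaling called 56 miRNAs higher and 73 lower. The mean over every miRNA gave 36 higher and 121 lower, the 75th percentile over every miRNA 73 and 46, spike-in controls 18 and 166, and unscaled signals 7 and 162. MiR-192 and miR-194 were among those called higher in each.

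**Figure D3:**
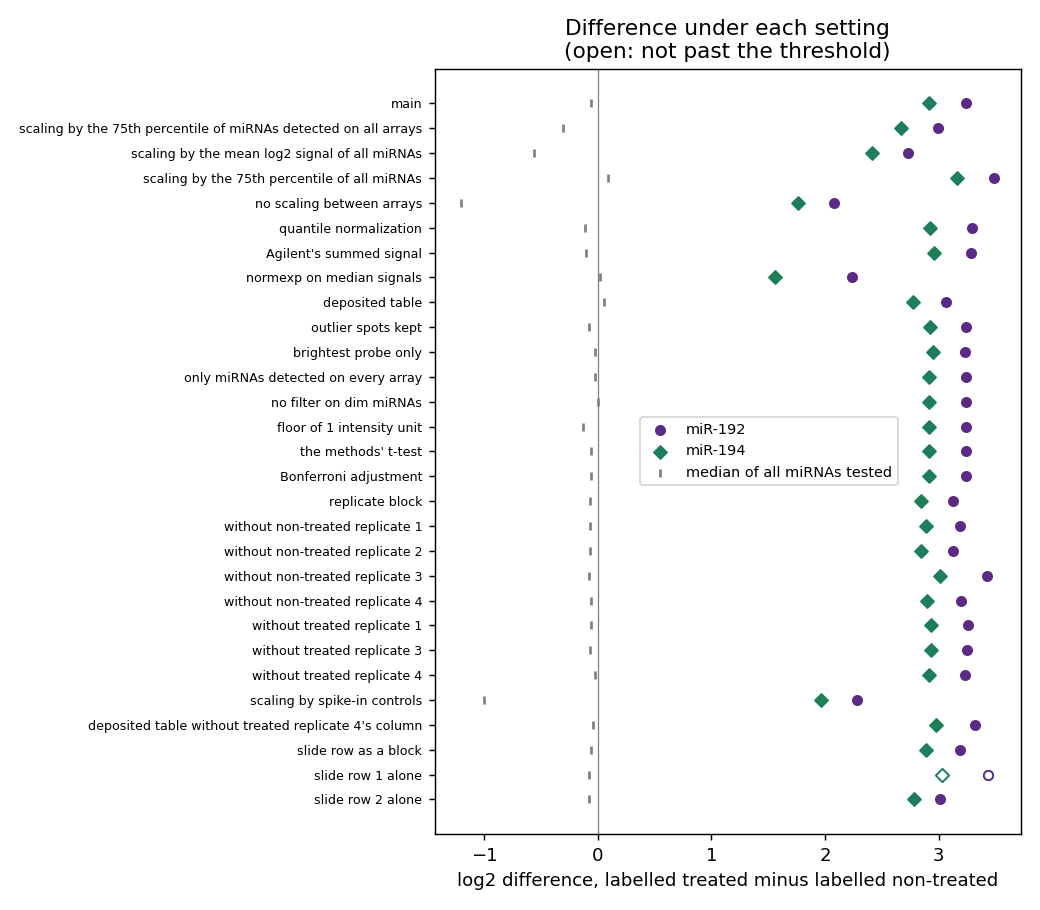
Log2 difference of miR-192 (circles) and miR-194 (diamonds) and the median of all miRNAs tested (grey ticks) under each setting, with the main one at the top. MiR-192 stays between 2.08 and 3.49 and miR-194 between 1.56 and 3.17, and open symbols mark the settings without a call, which are those of slide row 1 alone, where no miRNA was called.

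Each probe was then tested by itself, over the 528 probes of the miRNAs tested, of which 16.3% were called higher on the arrays labelled treated. All 4 probes of miR-192 and miR-194 were called higher. For miR-192 the log2 difference was 3.24 (standard error 0.24, limma adjusted p = 2.11e-04) with the brighter probe, A_54_P2461, and 3.25 (standard error 0.25, limma adjusted p = 2.56e-04) with the dimmer one, A_54_P2460. The probes of miR-192 gave the same difference within their errors. For miR-194 it was 2.95 (standard error 0.15, limma adjusted p = 6.38e-05) with A_54_P1151 and 2.81 (standard error 0.12, limma adjusted p = 3.83e-05) with A_54_P1152.

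The ratio of the brighter to the dimmer probe of a miRNA within an array does not depend on the scaling between arrays. For miR-192 its log2 value changed by -0.010 between the label groups (exact 2-sided permutation p = 0.971, and 0.971 adjusted over the 2 miRNAs). For miR-194 it was 1.90, 1.73, 1.92 and 1.89 in the non-treated label group, and 2.02, 1.96 and 2.01 in the other. That ratio of miR-194 was higher by 0.14 on the arrays labelled treated and did not overlap between the groups (exact 2-sided permutation p = 0.0571, the smallest possible here, and 0.114 adjusted over the 2 miRNAs). The dimmer probe of miR-194 had 15.2 to 72.5 intensity units. Spots of negative controls had means of -0.440 to 0.0625 on the same arrays, and the part of background in the ratio was not tested.

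**Figure D4:**
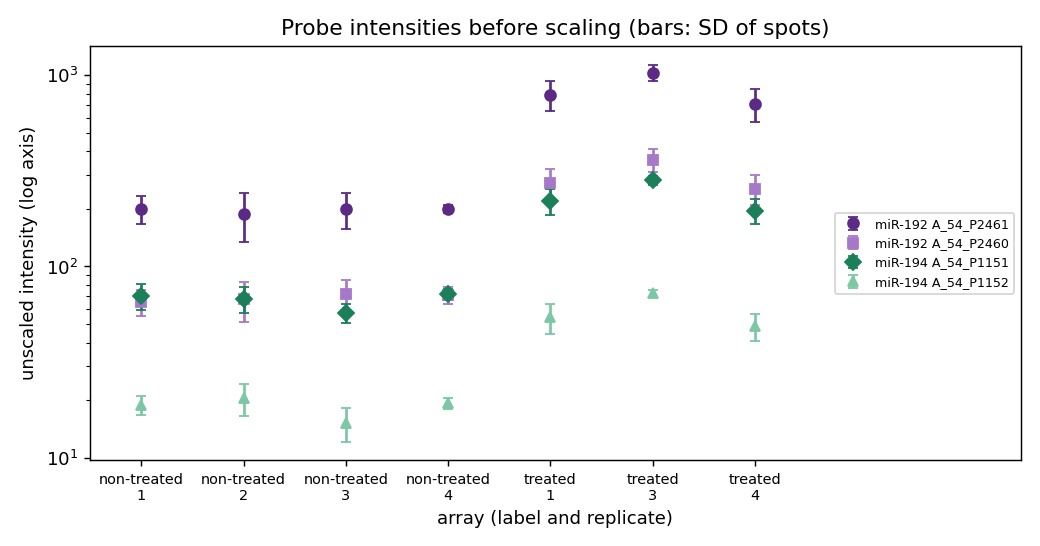
Intensity before scaling of the 2 probes of miR-192 and the 2 probes of miR-194 on each array, on a log axis, with the SD over the spots of a probe as bars. All 4 probes are brighter on the 3 arrays labelled treated, and in non-treated replicate 3 the probes of miR-194, not those of miR-192, are dimmer than on the other arrays of that label.

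The spots of a probe agreed to a median coefficient of variation of 14.5% to 18.1% over the arrays for these 4 probes, and no spot was saturated. The spread over spots is technical and says nothing of the spread between mice.

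Whether miR-192 and miR-194 differed by the same amount was compared through their ratio within each array, which again needs no scaling between arrays. The log2 ratio of miR-192 to miR-194 was 1.57, 1.54, 1.91 and 1.58 in the non-treated label group (replicates 1 to 4) and 1.96, 1.97 and 1.97 in the treated one (replicates 1, 3 and 4). It was 1.65 ± 0.17 (SD, n = 4) and 1.97 ± 0.0070 (SD, n = 3), so that miR-192 was higher relative to miR-194 by 0.32 on the log2 scale on the arrays labelled treated. The groups did not overlap, and the exact 2-sided permutation test gave p = 0.0571, the smallest it can give. Non-treated replicate 3 lay next to the arrays labelled treated. Without it the ratio on the other 3 arrays labelled non-treated was 1.56 ± 0.024 (SD, n = 3), and the difference was 0.41 (exact 2-sided permutation p = 0.1, then the smallest possible). The standard error of the ratio from the spots alone was 0.0353 to 0.115 per array, more than the SD over the arrays labelled treated. Of the 3 pairs among these miRNAs this was the only pair that could be compared, because miR-215 had no detectable signal.

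**Figure D5:**
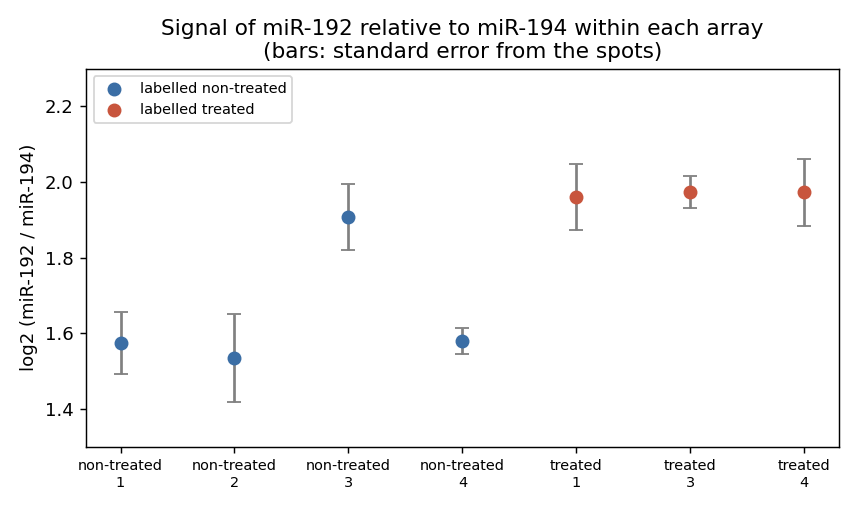
Log2 ratio of the unscaled signals of miR-192 and miR-194 on each array, with the standard error from the spots as bars. The 3 arrays labelled treated lie at 1.96 to 1.97, 3 of the arrays labelled non-treated at 1.54 to 1.58, and non-treated replicate 3 at 1.91.

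The spread of miR-192 among the arrays labelled non-treated came with the scaling. Its unscaled log2 signal had an SD of 0.042 over these 4 arrays, and the scaled one an SD of 0.43. Non-treated replicate 3 had the lowest total signal of the 4 and an unscaled miR-192 signal like the others, so scaling put it at 8.18, against 7.22 to 7.43. MiR-194 stood at 6.28 on that array after scaling, against 5.69 to 5.85. Without it the SD of the scaled signal on the arrays labelled non-treated was 0.11 for miR-192 and 0.085 for miR-194. On the arrays labelled treated the reverse held, where the unscaled SD of 0.28 for each miRNA fell to 0.059 for miR-192 and 0.055 for miR-194.

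All arrays were on 1 slide and read in 1 scan. The slide has rows, with non-treated replicates 1 and 2 and treated replicate 1 in row 1 and the other 4 arrays in row 2. In row 1 alone the log2 difference was 3.44 for miR-192 and 3.03 for miR-194. That row has a single array labelled treated, and limma called 0 of 269 miRNAs there (128 at an unadjusted p under 0.05), so it is given for its values and not as a test. In row 2 alone it was 3.01 and 2.78 (limma adjusted p = 0.00869 and 0.00435).

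Over the 7 arrays, the miRNAs whose scaled log2 signal was most like that of miR-192 were miR-194 (Pearson's r = 0.998), miR-212-3p (0.996) and miR-582-5p (0.996). The most like miR-194 were miR-582-5p (0.999), miR-192 (0.998) and miR-30c (0.996). MiR-582-5p differed by 1.91, miR-30c by 1.61 and miR-212-3p by 1.09 on the log2 scale, each higher on the arrays labelled treated. These values describe 7 arrays that fall into 2 separate label groups and share 1 slide, so a large difference between the groups is enough for a high r.

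Other miRNAs known from kidney epithelium were read beside them. Of 11 such miRNAs of the miR-200 and miR-30 families and miR-204, 8 were called higher on the arrays labelled treated, 1 was called lower and 2 did not pass, where 23.7% of all miRNAs tested were called higher and 30.9% lower. Their median log2 difference was 0.83, from -0.56 for miR-204 to 2.07 for miR-30e, against -0.06 for all miRNAs tested. The directions of 7 of the 11, with differences from -0.12 to 0.97, turned under at least 1 other scaling, and most of the scalings shift all miRNAs of an array together. MiR-30e, of a family abundant in nephron epithelium, had the largest rise of the list (standard error 0.071, limma adjusted p = 2.87e-06), less than that of either miR-192 or miR-194.

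Markers of other cells also moved between the label groups. All 25 marker miRNAs read, those of epithelium included, were detected on every array. The shares of all miRNAs called, 23.7% higher and 30.9% lower, are the background for the counts that follow. The 5 white blood cell miRNAs were all called lower on the arrays labelled treated, with a median of -1.82 and the largest fall for miR-223, a myeloid miRNA, at -2.33. Their summed log2 signal was 8.13 to 8.25 there and 10.12 to 10.51 on the arrays labelled non-treated. MiR-150 averaged 2.91 on the arrays labelled treated, near the floor of 2.75, so the floor may limit its difference of -1.76. The 5 mesenchymal miRNAs were all called lower, with a median of -2.41 and the largest fall for miR-199a-3p at -2.55, and with a summed signal of 9.16 to 9.20 against 11.31 to 11.49. Both red blood cell miRNAs were called higher, miR-144 and miR-451, at 2.61 and 1.65, and their summed signal was 12.17 to 12.32 against 10.08 to 11.19. Neither endothelial miRNA was called (miR-126-3p at -0.0018 and miR-126-5p at 0.076), with a summed signal of 10.80 to 10.89 against 10.79 to 10.93, and the sign of both turned under another scaling. The part of these cells in the differences of miR-192 and miR-194 was not tested.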

How the data were processed

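The deposited arrays had been read with Agilent Feature Extraction 10.7.3.1 (version from the submitters' processing notes), whose spot intensities the authors gave background-subtracted and not normalized between arrays. The labels and the study's methods name different RNA kits for the kidneys. Intensities without outlier flags were averaged per probe, summed per miRNA, scaled to one mean log2 over the miRNAs that every array detected and floored at the highest of the arrays' lowest detected signals. On the log2 scale, limma 3.58.1 (R 4.3.3) compared the labels, with Benjamini-Hochberg adjustment over all miRNAs tested and a threshold of 0.01. Exact permutation p-values are 2 times the smaller tail of 35 splits. The steps were tested on simulated data with as many rises as falls, which says nothing of the scaling under uneven change. The 3 miRNAs, marker lists and alternatives were chosen with earlier results of these data known. Named are these miRNAs, the 3 most correlated with each, and the largest change of each marker list. Also named are other list members where a result turned on them, and miRNAs that the study lists as raised after UUO. Within a label, log2 signals of array pairs differed by at least 1.34 times the spot error, so all arrays were counted. The authors' processed table holds first-spot intensities within a relative tolerance of 1e-05, except error estimates for treated replicate 4. It was used as an alternative. Arrays give no read depth.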

Additional observations from a re-analysis of the deposited data

Results flagged for a closer look

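Among the 4 arrays labelled non-treated, 8 measures of miR-192 and miR-194 and of total signal were searched for an array far from the other 3 by Dixon's test, which picks 5% of groups by chance, and 5 were picked. The measures are related to each other. Non-treated replicate 3 stood apart in its mean log2 signal before scaling, at 6.65 against 7.40 to 7.52, in its unscaled log2 signal of miR-194, at 6.18 against 6.46 to 6.50, and in its log2 ratio of miR-192 to miR-194, at 1.91 against 1.54 to 1.58. Non-treated replicate 1 stood apart in the log2 ratio of the probes of miR-192, at 1.61 against 1.48 to 1.49. Non-treated replicate 2 stood apart in the log2 ratio of the probes of miR-194, at 1.73 against 1.89 to 1.92.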

How the results depend on the processing

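Under 28 alternatives the log2 difference of miR-192 stayed between 2.08 and 3.49 and that of miR-194 between 1.56 and 3.17, and each passed the threshold under 27 of them. The exception, chosen after seeing the data, was slide row 1 alone, with 1 array labelled treated, assumed to vary like the others (3.44 and 3.03). There limma called 0 of 269 miRNAs, and 128 had an unadjusted p under 0.05, so the missing calls say nothing about stability. Both differences had shrunk with normexp, to 2.24 and 1.56, where an offset of 50 was added to all signals. The deposited table holds error estimates, not intensities, for treated replicate 4, so its passes and its count of calls are no support. Without that column the differences from the table were 3.32 and 2.98. Leaving out single arrays gave ranges of 3.13 to 3.42 and 2.85 to 3.02. Some alternatives could change the adjusted p but not the differences, which stayed at 3.24 and 2.92. These were the other filters on dim miRNAs, the floor of 1 intensity unit, the methods' t-test and the Bonferroni adjustment. The ratio of miR-192 to miR-194 kept its sign under 16 alternatives, from 0.23 in row 2 alone to 0.68 with normexp and its offset of 50. Not all of these were separate checks. The ratio was taken before the floor, so a floor of 1 intensity unit could not change it. The replicate block gave the same 0.28 as leaving out non-treated replicate 2. Agilent's summed signal gave the same 0.32 as the main setting. The number of miRNAs called, 129, was 59 with normexp, 62 with the deposited table, 65 with Bonferroni adjustment, 83 with that table without treated replicate 4 and 64 in row 2 alone (the last 2 chosen after seeing the data, as were spike-in scaling and slide row as a block). With the replicate number as a block miR-192 had 3.13 and miR-194 2.85, still called, and 94 miRNAs passed. The numbers did not pair the arrays, with correlations of -0.055, -0.034 and 0.18. Comparisons with miR-215 were not run under any alternative, since it was not called detected on any array. The number of arrays and the background limit what can be seen.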
